A study of Mus musculus with 16 samples.

Results

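The 33 genes described here are leukocyte genes: surface proteins that most blood cells carry, the kinases, phosphatases and adaptors that signal below their receptors, and the proteins that move the cell through tissue. The members were found by symbol in the deposited counts table, which holds 46078 genes, and each of the 33 was found once. RNA of ileum mucosa was sequenced from 16 mice of strain background C57Bl/6. Of these, 8 carry the Slfn3 knockout (Slfn3KO) and 8 are wild type (WT), with 4 mice labelled male and 4 labelled female in each genotype. The labels give an age of 8 weeks for every mouse, whereas the study's methods give an older range and describe littermates. Each library is 1 mouse, and libraries held between 20823279 and 30813117 counts on genes. Values are CPM, counts scaled to library size and between libraries by the TMM factors of edgeR.

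Leukocytes patrol the gut wall by rolling, adhering and crawling. Selectin ligands slow the cell, integrins such as LFA-1 hold it, and actin-binding proteins then drive it through the tissue, while receptor-linked tyrosine kinases and phosphatases set how strongly it responds. The ileum holds lymphocytes within the epithelium and the lamina propria, and it also holds Peyer's patches and isolated follicles, which are rich in B cells. Most of these genes are made by B cells, T cells and myeloid cells alike. Some are also made elsewhere, for instance moesin in endothelium and Plcg2 and Ptpn6 in tuft cells of the gut epithelium.

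Sex transcripts and the targeted gene were read first. Xist, made from the inactive X chromosome, was at 620.2, 629, 552 and 519 CPM in female Slfn3KO 1 to 4 and at most 0.252 CPM in male Slfn3KO mice. The Y-linked gene Ddx3y was at 42.0 and 49.7 CPM in female WT 3 and 4, where Xist was only 0.124 and 0 CPM. In male WT 3 and 4, Xist was at 437 and 401 CPM, with Ddx3y at 0 and 0.0416 CPM. These 4 WT libraries therefore go against their sex labels. The labels are kept below as names, and the comparisons are also given without the 4 libraries. Slfn3 itself had 0, 0, 0 and 2 counts in female Slfn3KO 1 to 4 and 1, 0, 0 and 0 in male Slfn3KO 1 to 4. WT counts were 1, 4, 7 and 13 in the libraries labelled female and 1, 2, 19 and 0 in those labelled male. In these counts the target is thus near the limit of detection in WT libraries as well, and it was too low to be tested. The study separately reported the loss of Slfn3 RNA in Slfn3KO mice by qPCR of intestinal mucosa. Over the 16 libraries 3 counts correspond to between 0.0974 and 0.144 CPM before TMM scaling.

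Among the WT mice, 3 libraries stand apart in the genes described here. Summed over the 33 members, female WT 3 reached 1651 CPM, female WT 4 reached 1828 CPM and male WT 3 reached 2736 CPM. The other 13 libraries lay between 395 CPM (male Slfn3KO 1) and 928 CPM (male WT 4). The same 3 libraries have the highest level of Cd79a, the signalling chain of the B cell receptor, which is not a member. Cd79a was at 52.0 CPM in female WT 3, 56.6 CPM in female WT 4 and 89.0 CPM in male WT 3. It lay between 0.252 CPM (male Slfn3KO 1) and 18.6 CPM (male WT 4) in the other 13. In bulk RNA, fewer cells of a type and less RNA per cell cannot be told apart, and this holds for each difference below. In 30 of the 33 members the 3 libraries lie above all of the other 13 (6.59% of all tested genes), and 32 members are highest in male WT 3 (13.3% of all tested genes). The exception is Lyn, highest in female WT 1. At the other end, 29 members are lowest in male Slfn3KO 1 (10.8% of all tested genes).

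**Figure D1:**
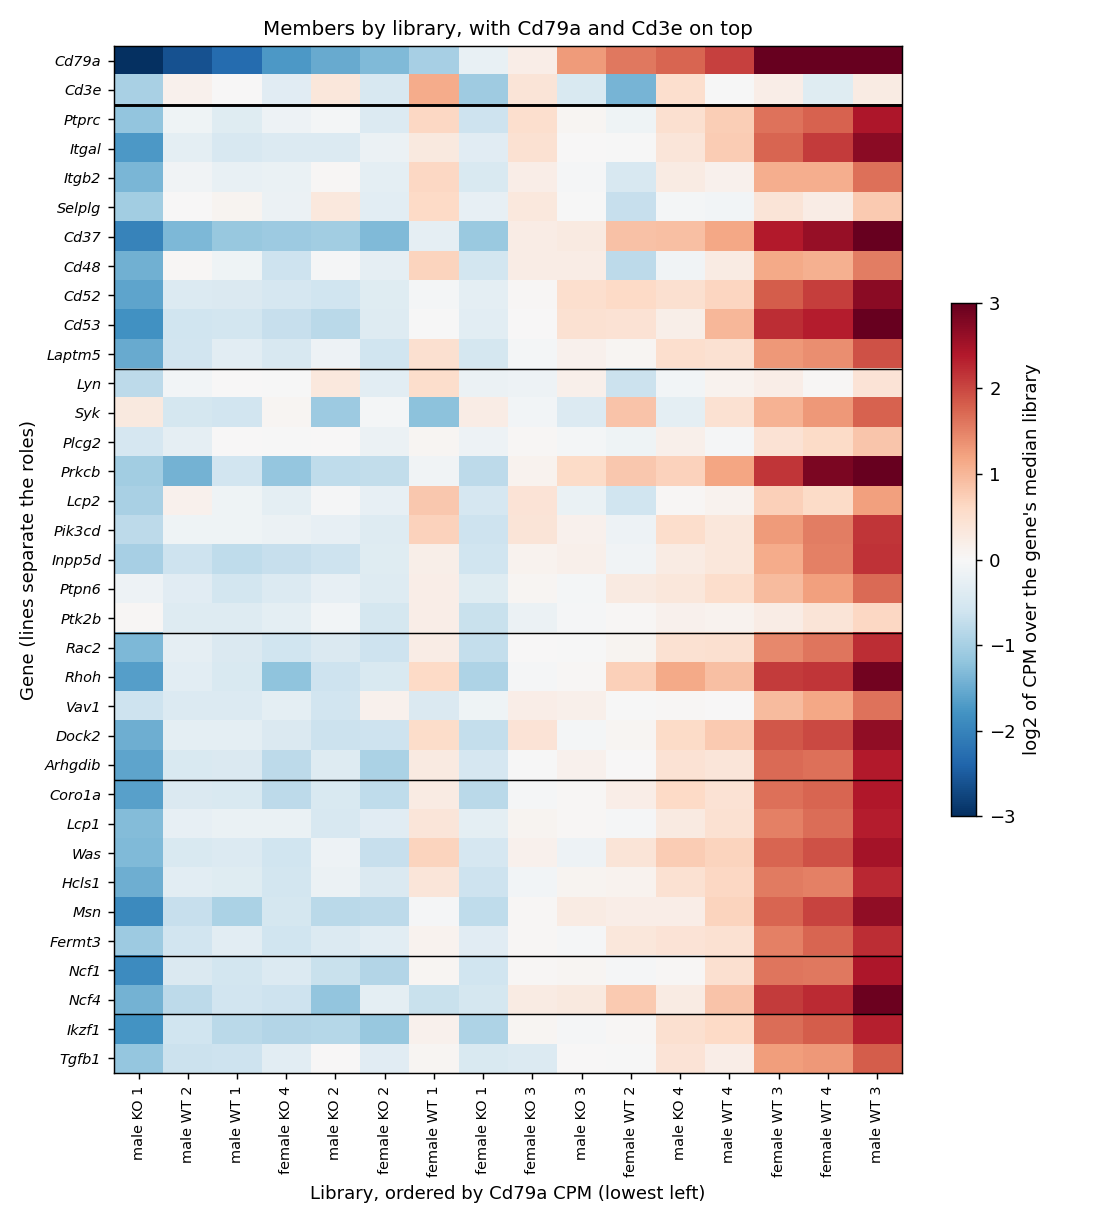
Each square is the CPM of 1 gene in 1 library over that gene's median library, on a log2 color scale from -3 to 3, with values beyond the scale drawn at its ends. The 16 libraries are ordered by Cd79a CPM from left to right, and the 3 on the right (female WT 3, female WT 4, male WT 3) are high in nearly every member, while Cd3e at the top has no such order.

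The first comparison asks whether these genes differ between genotypes over all 16 mice, with labelled sex as a covariate. All 33 members were lower in Slfn3KO mice, with a median log2 fold change of -1.26 and a range from -2.14 (Cd37) to -0.21 (Lyn). Over all 14822 genes tested the median was 0.00. None of the differences passed the threshold, which was an adjusted p under 0.05 with at least a 1.5-fold change. The members' adjusted p lay between 0.327 and 0.623 by the quasi-likelihood test of edgeR, Benjamini-Hochberg adjusted. That test called 0 of 14822 genes (0%), although 1770 had an unadjusted p under 0.05, and DESeq2 called 54. At an unadjusted p under 0.05 in edgeR's test, 29 of the 33 members were lower, against 1052 of all genes (7.10%), and 28 of the 29 differed by at least 1.5-fold. DESeq2's lower calls numbered 39 genes (0.263%), and Cd53 was the 1 member among them, with an adjusted p of 0.0413.

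Those counts change when WT libraries are left out. When WT 3 and 4 of both labelled sexes are left out, 29 members were lower and 4 higher, the median log2 fold change was -0.15, and the range ran from -0.48 (Rhoh) to 0.19 (Vav1). No member then had an unadjusted p under 0.05 in edgeR's test, against 468 of 15093 genes that were lower at that level (3.10%), and 0 genes passed the threshold. Leaving out male WT 3 alone gave a median of -0.81 with 23 members lower at an unadjusted p under 0.05, against 4.75% of all genes. Without female WT 3 the median was -1.15 with 27 members (6.33% of all genes), and without female WT 4 it was -1.15 with 27 members (5.54%). No fit left out just the 3 libraries that stand apart. The study itself named Msn, Ncf1, Prkcb, Ptk2b, Rac2, Ptpn6 and Tgfb1 from these same mice, so their direction is not independent evidence.

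**Figure D2:**
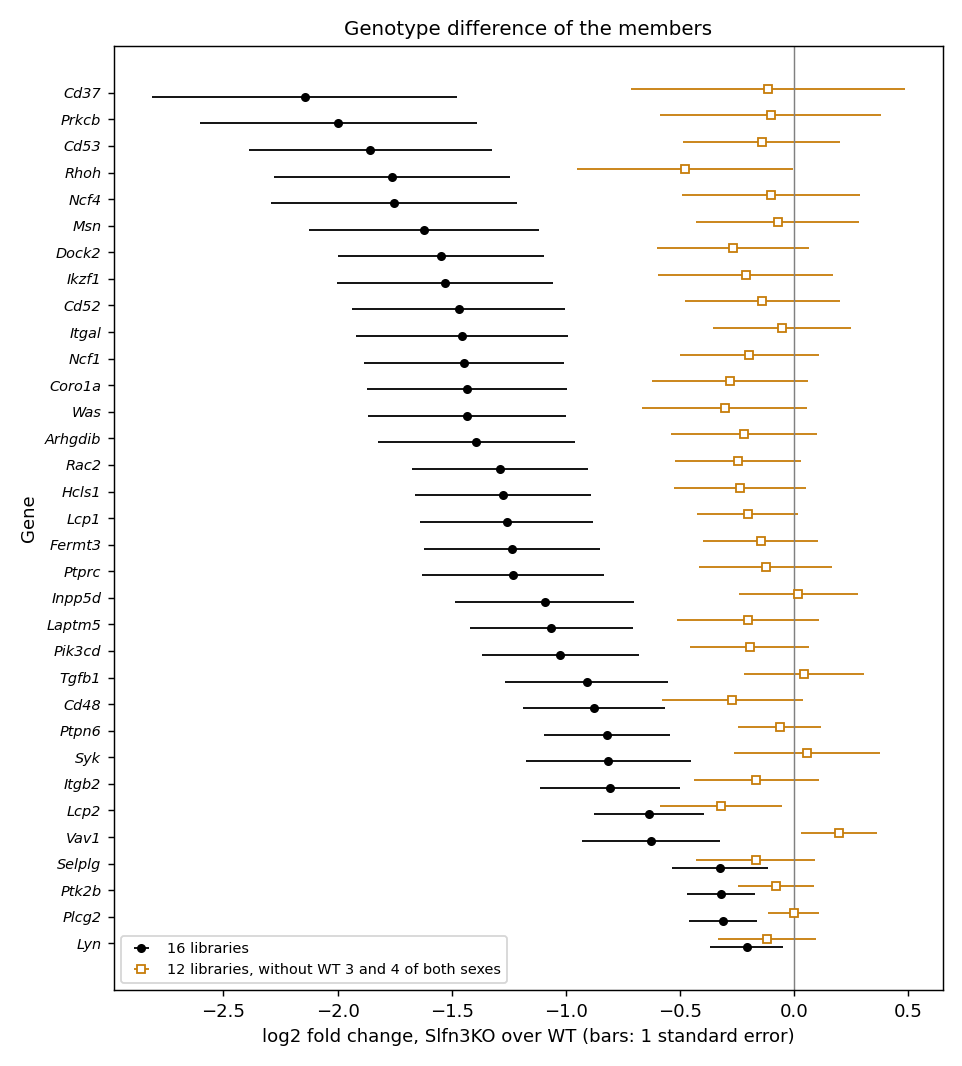
Points give the log2 fold change of Slfn3KO over WT for each of the 33 members, with bars of 1 standard error, in all 16 libraries (filled circles) and in the 12 libraries left without WT 3 and 4 of both labelled sexes (open squares). The filled circles run from -2.14 to -0.21 and the open squares from -0.48 to 0.19.

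The surface receptors and membrane proteins number 9. Ptprc (ENSMUSG00000026395, chromosome 1, 138062861 to 138175708 of GRCm38) encodes CD45, the phosphatase that keeps Src family kinases ready for use and that marks nucleated blood cells. It ranged from 19.5 to 62.8 CPM in Slfn3KO mice (median 41.0) and from 34.6 to 239 CPM in WT mice (median 71.3). The high WT values are female WT 3, female WT 4 and male WT 3 at 137, 152 and 239 CPM, and the other WT mice overlap with Slfn3KO. Its log2 fold change was -1.23 (standard error 0.40, adjusted p = 0.327 by the quasi-likelihood test of edgeR, Benjamini-Hochberg adjusted) and -0.13 without WT 3 and 4. Cd37 (ENSMUSG00000030798, chromosome 7, 45233632 to 45239115), a tetraspanin most abundant on mature B cells, ranged from 3.32 to 24.7 CPM in Slfn3KO mice (median 6.28) and from 5.19 to 136 CPM in WT mice (median 26.9). Slfn3KO mice were not uniform in Cd37, since male Slfn3KO 3 and 4 and female Slfn3KO 3 had 15.9, 24.7 and 15.5 CPM, above male WT 1 and 2 at 6.04 and 5.19 CPM. The log2 fold change of Cd37 was -2.14 (standard error 0.67) and -0.12 without WT 3 and 4.

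Cd53 (ENSMUSG00000040747, chromosome 3, 106759921 to 106790149), a tetraspanin found across leukocytes, lay from 2.92 to 14.02 CPM in Slfn3KO mice (median 8.03) and from 6.73 to 84.4 CPM in WT mice (median 17.2). Every Slfn3KO value sits inside or below the span of WT 1, 2 and male WT 4, which ran from 6.73 to 20.6 CPM. The log2 fold change was -1.86 (standard error 0.53, adjusted p = 0.327 by the quasi-likelihood test of edgeR, Benjamini-Hochberg adjusted). Cd52, a short glycoprotein anchored on lymphocytes, had -1.47 and Laptm5, a lysosomal protein that limits receptor signalling, had -1.06. Itgal and Itgb2 are the alpha and beta chains of LFA-1, the integrin that binds ICAM-1. Itgal ran from 2.38 to 10.8 CPM in Slfn3KO mice (median 6.57) and from 5.61 to 51.0 CPM in WT mice (median 11.4), and its log2 fold change was -1.45. For Itgb2, which also pairs with myeloid alpha chains, it was -0.81. Cd48, a GPI-anchored SLAM family protein, had -0.88. Selplg, the P-selectin ligand used in rolling, differed least of the 9, with -0.33 (standard error 0.21). Its highest Slfn3KO value, 13.4 CPM, lay above the WT median of 11.96 CPM, and female WT 2 had only 6.65 CPM. Of the 9, 8 had an unadjusted p under 0.05 in edgeR's test (7.10% of all genes were lower at that level), Selplg did not, and 0 did without WT 3 and 4.

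Promoters of the members were searched for a short Ets-type word, GAGGAAGT, which the blood cell factor PU.1 can bind. RefSeq promoters of build GRCm38.p6, from 250 bases before to 50 bases after the start site, were given for 25 of the 33 members. The letters GAGGAAGT, or ACTTCCTC for the other strand, occur in 4 of these 25 genes (16.0%), which are Cd37, Cd53, Inpp5d and Vav1. Over all genes with a promoter the share is 997 of 27025 (3.69%), and over all promoters 1052 of 32851 (3.20%). TATAAA, read on both strands for comparison, occurs in 4 of the 25 members (16.0%, Arhgdib, Hcls1, Laptm5 and Ptprc) and in 15.7% of all genes. The word lies close to the start site in each of the 4 promoters, beginning 20 bases before it in Inpp5d, 25 before it in Cd37, 11 before it in Vav1 and 6 after it in Cd53. They are shown because they carry the word, written out with the word in capitals and the rest in lower case. Coordinates are Cd37 at chr7:45238790-45239089 on the minus strand, Cd53 at chr3:106790100-106790399 on the minus strand, Inpp5d at chr1:87620062-87620361 on the plus strand and Vav1 at chr17:57278850-57279149 on the plus strand.
Cd37: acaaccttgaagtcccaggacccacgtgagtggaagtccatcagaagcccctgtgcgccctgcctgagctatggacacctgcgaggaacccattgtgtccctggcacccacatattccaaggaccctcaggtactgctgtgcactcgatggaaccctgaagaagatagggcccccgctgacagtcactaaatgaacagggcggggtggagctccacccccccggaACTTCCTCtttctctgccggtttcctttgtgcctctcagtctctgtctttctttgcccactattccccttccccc
Cd53: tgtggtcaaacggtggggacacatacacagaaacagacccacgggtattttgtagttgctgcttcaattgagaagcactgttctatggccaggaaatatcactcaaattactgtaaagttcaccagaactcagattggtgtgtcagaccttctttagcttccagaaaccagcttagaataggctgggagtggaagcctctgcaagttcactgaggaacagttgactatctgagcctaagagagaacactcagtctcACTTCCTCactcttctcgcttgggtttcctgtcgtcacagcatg
Inpp5d: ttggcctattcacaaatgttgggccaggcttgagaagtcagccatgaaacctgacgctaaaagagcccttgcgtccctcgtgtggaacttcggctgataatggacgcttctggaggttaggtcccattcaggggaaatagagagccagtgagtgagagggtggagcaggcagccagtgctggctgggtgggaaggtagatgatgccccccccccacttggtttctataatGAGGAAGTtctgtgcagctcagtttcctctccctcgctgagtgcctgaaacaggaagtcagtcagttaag
Vav1: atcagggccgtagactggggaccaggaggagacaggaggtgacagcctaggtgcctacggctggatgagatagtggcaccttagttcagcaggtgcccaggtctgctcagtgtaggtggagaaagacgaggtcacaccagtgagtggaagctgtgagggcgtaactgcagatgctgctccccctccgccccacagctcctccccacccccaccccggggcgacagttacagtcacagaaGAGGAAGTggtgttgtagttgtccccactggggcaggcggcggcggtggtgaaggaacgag
A match of letters is a description of the sequence, and binding was not measured. Between the lowest and the highest library, Cd37 spans 41.1-fold, Cd53 28.9-fold, Inpp5d 8.87-fold and Vav1 4.71-fold.

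Another 9 members are kinases, phosphatases, a phospholipase and an adaptor. Prkcb, the protein kinase C isoform that couples the B cell receptor to NF-kB, ran from 1.16 to 4.23 CPM in Slfn3KO mice (median 1.55) and from 0.982 to 24.6 CPM in WT mice (median 5.24). Its low end is shared by both genotypes, since male WT 2 had the lowest value of all 16 libraries. The log2 fold change was -1.996 (standard error 0.61, adjusted p = 0.327 by the quasi-likelihood test of edgeR, Benjamini-Hochberg adjusted) and -0.10 without WT 3 and 4. Inpp5d encodes SHIP1, a lipid phosphatase that opposes PI3 kinase, and Pik3cd encodes the leukocyte PI3 kinase catalytic subunit p110 delta. Inpp5d had a log2 fold change of -1.09 and Pik3cd one of -1.02, so the kinase and the phosphatase were lower by like amounts. Leaving out WT 3 and 4 gave 0.02 and -0.20. Ptpn6, the inhibitory phosphatase SHP-1, had -0.82 and -0.06 in the same 2 settings.

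Syk, the tyrosine kinase that docks on phosphorylated receptor tails, ran from 18.4 to 48.2 CPM in Slfn3KO mice (median 37.7) and from 16.9 to 134 CPM in WT mice (median 62.9). It does not follow the other members at the low end. Its lowest value was in female WT 1 (16.9 CPM) and male Slfn3KO 1, the lowest library for 29 members, had 48.2 CPM. The log2 fold change of Syk was -0.81 (standard error 0.36) and 0.06 without WT 3 and 4. Lyn, a Src family kinase with both activating and inhibitory roles, was at 64.4, 58.4, 65.8 and 71.6 CPM in female Slfn3KO 1 to 4 and 42.4, 90.1, 81.2 and 68.1 CPM in male Slfn3KO 1 to 4. The groups overlap throughout, with WT values from 46.4 to 105 CPM, and its log2 fold change was -0.21 (standard error 0.16, adjusted p = 0.623 by the quasi-likelihood test of edgeR, Benjamini-Hochberg adjusted). Plcg2, the phospholipase that releases calcium below the B cell and Fc receptors, had -0.31, and Ptk2b, the focal adhesion kinase relative PYK2, had -0.32. Lcp2 encodes SLP-76, an adaptor of T cells and myeloid cells that B cells largely lack, and its value was -0.64. Lyn, Plcg2, Ptk2b and Selplg are the 4 members whose highest library is less than 4-fold above their lowest. Of these 9 signalling genes, 7 had an unadjusted p under 0.05 in edgeR's test, beside 7.10% of all genes lower at that level, and 0 did without WT 3 and 4.

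Rac2, Rhoh, Dock2 and Arhgdib differed by like amounts. Rac2, the blood cell Rac that drives migration and the oxidase, ran from 11.2 to 38.5 CPM in Slfn3KO mice (median 19.8) and from 20.96 to 131 CPM in WT mice (median 36.3). Its log2 fold change was -1.29 (standard error 0.38, adjusted p = 0.327 by the quasi-likelihood test of edgeR, Benjamini-Hochberg adjusted) and -0.25 without WT 3 and 4. Male Slfn3KO 4, at 38.5 CPM, lay above WT 1 and 2 of both labelled sexes, so the genotypes overlap. Rhoh, a protein without GTPase activity that lymphocytes need for receptor signalling, had -1.76, and its -0.48 without WT 3 and 4 was the lowest value of the 33 in that setting. Dock2, the exchange factor that activates Rac behind chemokine receptors, had -1.55. Arhgdib, a GDP dissociation inhibitor of blood cells, had -1.39. Vav1, an exchange factor phosphorylated by antigen receptors, differed less, at -0.63 (standard error 0.30). Its values ran from 7.75 to 13.7 CPM in Slfn3KO mice (median 11.5) and from 8.74 to 36.5 CPM in WT mice (median 11.9), and the medians of the genotypes are near each other. Vav1 was higher in Slfn3KO mice without WT 3 and 4, by 0.19.

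The 6 members of the actin cytoskeleton and integrin activation lay close together, with log2 fold changes from -1.62 to -1.24, each at an unadjusted p under 0.05 in edgeR's test (7.10% of all genes lower). Coro1a, the coronin that controls actin turnover and naive lymphocyte survival, ran from 13.9 to 65.4 CPM in Slfn3KO mice (median 28.5) and from 31.5 to 227 CPM in WT mice (median 54.7). Female WT 3, female WT 4 and male WT 3 had 135, 145 and 227 CPM, while male WT 1 and 2 had 31.5 and 31.9 CPM, within the Slfn3KO span. Its log2 fold change was -1.43 (standard error 0.44, adjusted p = 0.327 by the quasi-likelihood test of edgeR, Benjamini-Hochberg adjusted). Msn, the ezrin relative that links the membrane to actin, had -1.62. Lcp1, the actin-bundling L-plastin, had -1.26, and Was, the Wiskott-Aldrich protein that starts branched actin, had -1.43. Hcls1, a cortactin-like protein of blood cells, had -1.28, and Fermt3, the kindlin that activates leukocyte and platelet integrins, had -1.24. The 6 values without WT 3 and 4 of both labelled sexes lay between -0.31 (Was) and -0.07 (Msn), with 0 of the 6 at that level of p.

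Ncf1 and Ncf4 encode p47phox and p40phox, cytosolic subunits of the phagocyte NADPH oxidase. Ncf1 ran from 2.49 to 9.64 CPM in Slfn3KO mice (median 6.44) and from 6.24 to 49.1 CPM in WT mice (median 11.2), and its log2 fold change was -1.45 (standard error 0.44). Ncf4 ran from 1.01 to 3.32 CPM in Slfn3KO mice (median 2.05) and from 1.58 to 20.9 CPM in WT mice (median 4.80), with -1.75 (standard error 0.54). Neither subunit separates the genotypes. Male WT 1 and 2 had 6.24 and 6.77 CPM of Ncf1 and 1.84 and 1.58 CPM of Ncf4, inside the Slfn3KO spans. Ikzf1, the zinc finger factor Ikaros of lymphocyte development, had -1.53 (standard error 0.47). Tgfb1, the cytokine that directs IgA switching and regulatory T cells in the gut, had -0.91 (standard error 0.36). In the 12 libraries left without WT 3 and 4, these 4 genes were at -0.20, -0.10, -0.21 and 0.04.

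Many members belong to families that also hold a broadly expressed gene, and 20 such pairs were compared. Levels between genes are given here as CPM per kilobase of exon. At the median of the 16 libraries, Rac2 was at 9.30 and Rac1 at 105, and Coro1a was at 15.5 and Coro1b at 149. Lcp1 was at 4.21 beside 492 for Pls1, the plastin of intestinal microvilli. Msn was at 3.66 beside 649.9 for the epithelial protein ezrin (Ezr), and Itgb2 at 3.72 beside 73.6 for Itgb1. The member lay below its relative in every library in 14 of the 20 pairs. In 2 pairs, Plcg2 with Plcg1 and Lyn with Yes1, it lay above it in every library.

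The relatives varied little between libraries and genotypes. The highest library was 1.62 times the lowest for the median relative, with a largest value of 3.62 (Ezr), and 11.2 times for the median member of the pairs. Of the 20 relatives, 12 were lower and 8 higher in Slfn3KO mice, with a median log2 fold change of -0.03 and a range from -0.37 (Ezr) to 0.17 (Fermt1). By edgeR's test 0 of the 20 passed the threshold and 0 had an unadjusted p under 0.05, and by DESeq2 both counts were 0 as well. For the 20 members of these pairs the median was -1.25. Log2 fold changes were -0.12 for Rac1, -0.24 for Pls1, -0.05 for Coro1b, 0.09 for Itgb1 and -0.37 for Ezr. In all 20 pairs the member had the larger absolute log2 fold change over 16 libraries. With WT 3 and 4 left out, the relative had the larger one in 9 of the 20, for instance Ezr with -0.43 beside Msn with -0.07 and Pls1 with -0.42 beside Lcp1 with -0.20. In that setting 15 relatives were lower, with a median of -0.10.

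**Figure D3:**
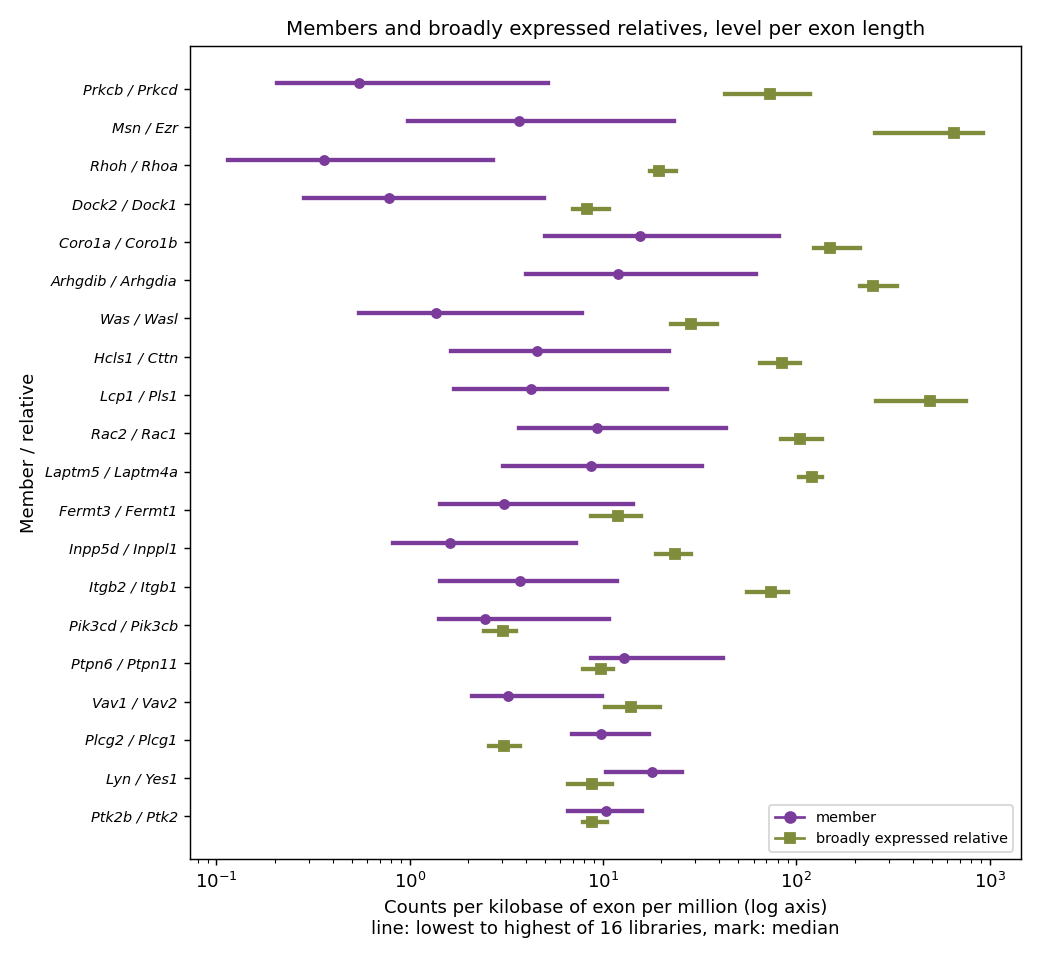
For each of the 20 pairs, the upper line is the member and the lower line its broadly expressed relative, from the lowest to the highest of 16 libraries, with a mark at the median, in CPM per kilobase of exon on a log axis. Pairs are ordered by the member's span, from 25.1-fold (Prkcb) to 2.43-fold (Ptk2b), and the relatives span 1.30-fold to 3.62-fold.

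The study compared the genotypes within each sex, and the same was done by label. In the libraries labelled male all 33 members were lower in Slfn3KO mice, with a median log2 fold change of -1.15. The edgeR test called 0 of 14124 genes (0%), with 542 at an unadjusted p under 0.05, and DESeq2 called 14. No member had an unadjusted p under 0.05 in edgeR's test, against 279 genes lower at that level (1.98%), and 5 members did by DESeq2, against 408 genes lower (2.89%). Cd37 was at 3.32, 6.39, 15.9 and 24.7 CPM in male Slfn3KO 1 to 4 and at 6.04, 5.19, 136 and 29.5 CPM in male WT 1 to 4. It had the largest log2 fold change, -1.85 (standard error 1.10), followed by Cd53 with -1.82 and Ncf4 with -1.77. Male WT 3 is far above the other 7 in Cd37, and male Slfn3KO 3 and 4 lie above male WT 1 and 2. The smallest differences were those of Ptk2b (-0.03), Lyn (-0.17) and Plcg2 (-0.29). Ptprc had -1.21 (standard error 0.65, adjusted p = 0.925 by the quasi-likelihood test of edgeR, Benjamini-Hochberg adjusted).

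The male difference is small without male WT 3. Without it the median log2 fold change was -0.09, with 26 members lower and 7 higher. Without male WT 3 and 4 it was 0.27, with 5 members lower and 28 higher. Cd37 was then at 1.16 and Ptprc at 0.18. In that setting 0 members were lower at an unadjusted p under 0.05, against 547 of 14551 genes (3.76%), and 2 were higher, Ptk2b with 0.41 and Ptpn6 with 0.43, against 492 genes (3.38%). Without male WT 1 the number of members lower at an unadjusted p under 0.05 was 8, against 3.57% of all genes, and without male WT 2 it was 7, against 2.47%. Male mice with the same replicate number in their titles deviate from their group means with correlations of 0.138 to 0.518. For mice labelled female the correlations were -0.362 to 0.143. The labels do not say that mice with the same number are paired. The number was also fitted as a block. The median was then -0.78 with 32 members lower, and Cd48, Cd53, Ncf1 and Ncf4 were lower at an unadjusted p under 0.05, against 3.24% of all genes, while 0 genes passed the threshold.

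In the libraries labelled female the difference is larger relative to its error. All 33 members were lower in Slfn3KO mice, with a median of -1.37, and 27 had an unadjusted p under 0.05 in edgeR's test, against 1204 of 14064 genes (8.56%). None passed the threshold in edgeR's test, which called 0 genes (0%) although 2410 had an unadjusted p under 0.05. DESeq2 called 506 genes, of which 345 were lower (2.45%), and 22 of these were members. The smallest adjusted p of a member was 0.236 by the quasi-likelihood test of edgeR, Benjamini-Hochberg adjusted. Cd37 was at 6.11, 5.32, 15.5 and 6.18 CPM in female Slfn3KO 1 to 4 and 10.9, 24.2, 68.5 and 80.7 CPM in female WT 1 to 4. Its log2 fold change was -2.47 (standard error 0.65), and the groups overlap only through female Slfn3KO 3, which lies above female WT 1. Rhoh was at 1.98, 2.70, 3.65 and 1.605 CPM in female Slfn3KO 1 to 4 and 5.62, 6.10, 16.0 and 16.5 CPM in female WT 1 to 4, without overlap, and its log2 fold change was -2.16 (standard error 0.44). Prkcb had -2.40 and Ptprc -1.27. At the small end were Lyn (-0.25), Selplg (-0.29) and Plcg2 (-0.35).

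Every female Slfn3KO library lay below every female WT library in 11 members: Ptk2b, Rac2, Hcls1, Fermt3, Laptm5, Rhoh, Ptpn6, Arhgdib, Tgfb1, Coro1a and Was. Over all genes this held for 450 of 14822 (3.04%). In the libraries labelled male it held for 0 members and 188 genes (1.27%). Over all 16 mice it held for 0 members and 1 gene (0.00675%). Ptk2b, the kinase that relays integrin and chemokine signals to the cytoskeleton, was at 48.5, 53.0, 68.5 and 63.0 CPM in female Slfn3KO 1 to 4 and 88.4, 78.2, 89.8 and 100.2 CPM in female WT 1 to 4. Female WT 1, with 88.4 CPM of Ptk2b, had a Cd79a of 2.26 CPM and the highest Cd3e of the 16 libraries (28.3 CPM). Without female WT 3 and 4 the median of the 33 was -0.51, with 32 lower and Vav1 higher (0.19), and 12 had an unadjusted p under 0.05 in edgeR's test, against 1730 of 14634 genes (11.8%). Rhoh was then at -1.25 (standard error 0.34), Cd37 at -1.09 and Ptk2b at -0.52. That comparison has only 2 WT mice.

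Whether genotype acts differently by labelled sex was tested as the interaction over all 16 mice, given as the female minus the male log2 fold change. Of the 33 members 26 had a negative value and 7 a positive one, with a median of -0.19. The edgeR test called 0 of 14822 genes (0%), 1639 had an unadjusted p under 0.05, and DESeq2 called 19 genes. The 1 member with an unadjusted p under 0.05 was Ptk2b at -0.58 (standard error 0.27), against 779 genes that were lower at that level (5.26%). Prkcb had -0.78, Rhoh -0.78 and Cd37 -0.65 (standard error 1.32), while Ncf1 and Ncf4 had 0.01 and -0.02, Plcg2 -0.06 and Ptprc -0.08. Single WT libraries move these values widely. The median was -1.22 without male WT 3, with 33 members negative and 10 at an unadjusted p under 0.05 (4.97% of all genes), and 0.06 without female WT 4, with 14 members negative. Leaving out WT 3 and 4 of both labelled sexes, 359 of 15093 genes passed, 135 of them lower (0.894%), and 4 members were lower at an unadjusted p under 0.05, against 1888 genes (12.5%). Ptk2b was the 1 member that passed, with -0.92 and an adjusted p of 0.0443 by the quasi-likelihood test of edgeR, Benjamini-Hochberg adjusted. In that setting Ptk2b was -0.52 in the libraries labelled female and 0.41 in those labelled male. The 10 B cell markers described below were all negative in the same interaction, with a median of -5.12.

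The members were next set against Cd79a CPM, as log2 values over the 16 libraries. With the prior count of 2, Cd79a spans 8.07 log2 units. Its widest gap between neighbouring libraries is then 1.48, between male WT 4 and female WT 3, below the 3 highest libraries. That ranking of gaps depends on the prior count. In plain CPM, male Slfn3KO 1 (0.252) and male WT 2 (0.736) differ by a larger ratio than male WT 4 (18.6) and female WT 3 (52.0). Spearman's rho with Cd79a was positive for all 33 members, with a median of 0.853 and a range from 0.359 (Selplg) to 0.959 (Cd37, Cd52 and Cd53). Over all 14821 other genes tested the median rho was -0.02. After Benjamini-Hochberg adjustment over these 14821 relations, 25 members had a permutation p under 0.05, against 699 genes with a positive rho at that level (4.72%). The 8 others were Itgb2, Selplg, Cd48, Lyn, Syk, Plcg2, Lcp2 and Ptk2b. Cd37 had r = 0.967 and rho = 0.959 (permutation p = 1e-05 for r and 1e-05 for rho, the smallest that 100000 draws can give, adjusted p = 0.000628 for rho). Coro1a had r = 0.918 and rho = 0.865 (permutation p = 3e-05 for rho, adjusted p = 0.00148). For Ptprc r was 0.860 and rho 0.794 (permutation p = 3e-05 for r and 0.0005 for rho, adjusted p = 0.0145 for rho).

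The lowest values of rho belong to Lyn and Selplg. Lyn had r = 0.361 and rho = 0.365 (permutation p = 0.170 and 0.166, adjusted p = 0.519 for rho), and Selplg had r = 0.463 and rho = 0.359 (permutation p = 0.0693 and 0.173, adjusted p = 0.526 for rho). The slope on log2 Cd79a tells how steeply a gene follows it. Cd37 gained 0.64 log2 units for each log2 unit of Cd79a, Prkcb 0.55, Cd53 0.51 and Lyn 0.05. By role, the median rho was 0.879 for the surface proteins, 0.691 for the kinases, phosphatases, phospholipase and adaptor, and 0.869 for the actin and integrin genes. For the oxidase subunits it was 0.893, and for Ikzf1 with Tgfb1 it was 0.865. Each slope lies below 1, so the members vary less than Cd79a does between the same libraries.

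**Figure D4:**
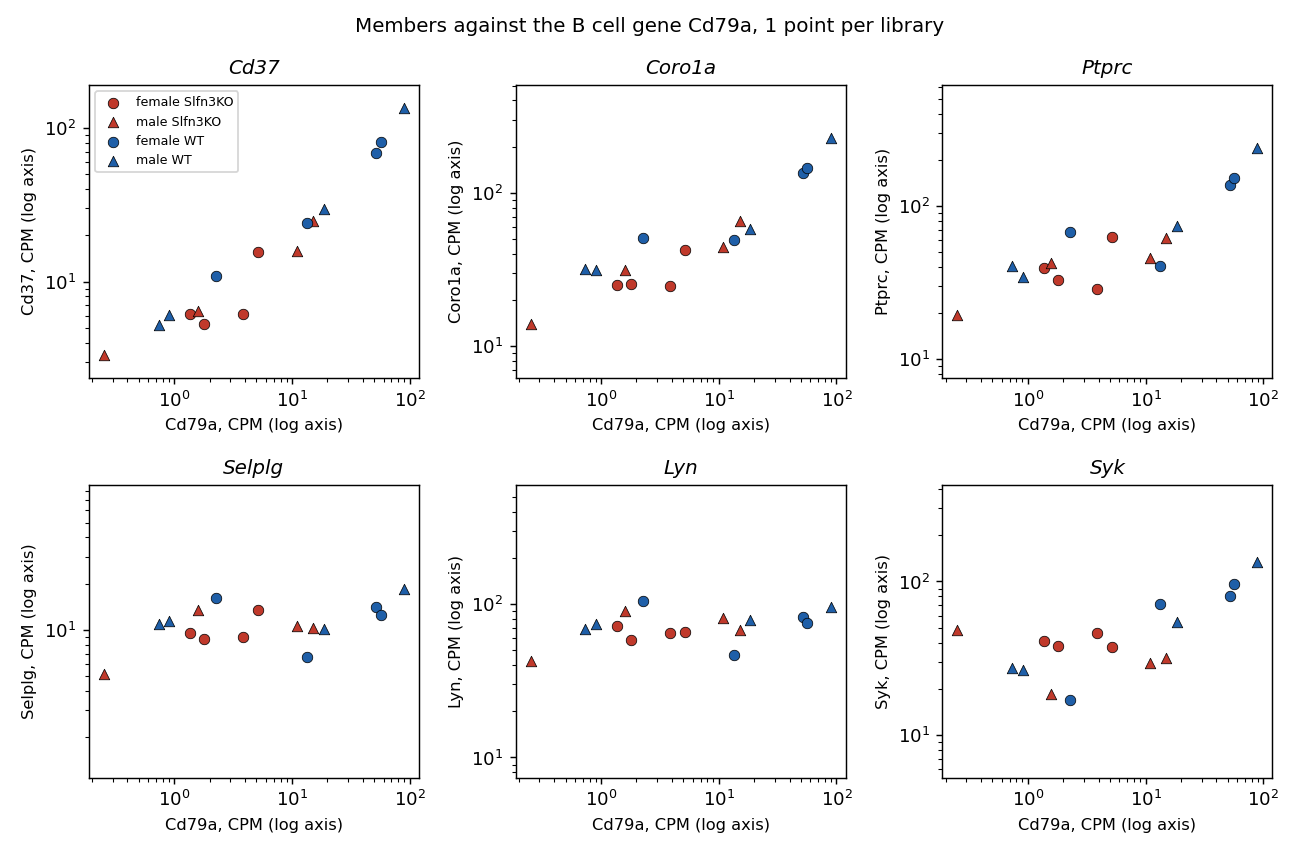
Each point is 1 library, with Cd79a CPM on the horizontal and the member's CPM on the vertical log axis, in red for Slfn3KO and blue for WT, with circles for libraries labelled female and triangles for male. Each vertical axis spans the same number of log units. Cd37 climbs most steeply, Coro1a and Ptprc less so, Selplg and Lyn stay nearly level, and Syk is scattered where Cd79a is low.

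The relation holds within each genotype with few libraries. In the 8 Slfn3KO mice, which include none of the 3 libraries that stand apart, the median rho of the members was 0.786, and 32 of 33 were positive. The exception was Syk at -0.524. For Cd37 in Slfn3KO mice r was 0.926 and rho 0.810 (exact permutation p = 0.000744 and 0.0218). No gene in that genotype had an adjusted p under 0.05 for rho (0 of 14821, 0%), although 524 genes and 22 members had an unadjusted exact permutation p under 0.05 (3.54% of all genes). In the 8 WT mice the median rho was 0.952, and 18 members had an adjusted exact permutation p under 0.05, against 403 genes (2.72%). Cd37, Cd53, Prkcb and Fermt3 follow the order of Cd79a in WT mice without exception, with rho of 1 each. Leaving out male WT 3 and male Slfn3KO 1, the libraries farthest from the median of Cd79a, gave r = 0.961 for Cd37, 0.775 for Ptprc, 0.873 for Coro1a, -0.0340 for Lyn and 0.0318 for Selplg. The relation of Lyn and Selplg to Cd79a thus rests on those 2 libraries.

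Without the 3 libraries highest in Cd79a, an alternative chosen after the data were seen, the median rho over the other 13 was 0.725, with 32 members positive. At an adjusted permutation p under 0.05 there were 9 members, against 199 genes (1.34%). The median rho was 0.685 without WT 3 and 4 of both labelled sexes, where 3 members in place of 25 had an adjusted permutation p under 0.05, against 113 genes (0.762%). With group means removed, so that neither genotype nor labelled sex contributes, it was 0.871. Within the 8 libraries labelled male it was 0.905 and within the 8 labelled female 0.738. The positive relation is thus seen inside the groups as well as between them.

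To see how far this order belongs to a B cell gene, the same relation was taken with the T cell receptor chain Cd3e and with the macrophage receptor Csf1r. Each is 1 gene of a marker list described below, and those lists are mixed. With Cd79a, rho was 0.959 for Cd2 and 0.709 for Cd4 (T cell list median 0.390). It was 0.926 for Lyz2, 0.285 for Mrc1 and 0.203 for Fcgr1 (macrophage and dendritic cell list median 0.565). Cd3e (4.99 to 28.3 CPM) and Csf1r (10.1 to 26.3 CPM) also span less than Cd79a (0.252 to 89.0 CPM). With Cd3e the median rho of the members was 0.406 and no member had an adjusted permutation p under 0.05 (88 genes of 14821 had a positive rho at that level, 0.594%), with 9 members at an unadjusted permutation p under 0.05, against 1408 genes (9.50%). With Csf1r it was 0.385, again with 0 members at an adjusted permutation p under 0.05 (42 genes, 0.283%) and 4 at an unadjusted permutation p under 0.05, against 1550 genes (10.5%). By r, the members' median was 0.334 with Cd3e, 0.638 with Csf1r and 0.905 with Cd79a. At an adjusted permutation p under 0.05 for r there were 3 members with Cd3e (2.45% of all genes), 4 with Csf1r (3.32%) and 29 with Cd79a (6.70%). For 29 members rho was higher with Cd79a than with Cd3e, and for all 33 it was higher with Cd79a than with Csf1r. The 4 higher with Cd3e were Itgb2, Selplg, Lcp2 and Lyn. Selplg had rho = 0.782 with Cd3e (permutation p = 0.00059, adjusted p = 0.0540), and Lcp2, the T cell adaptor, had 0.756 (permutation p = 0.00093, adjusted p = 0.0669). Syk, whose role in mature T cells is taken by Zap70, had a negative value of -0.415. Female WT 1 shows the contrast in 1 library: it has the highest Cd3e (28.3 CPM), little Cd79a (2.26 CPM), the highest Lyn (105 CPM) and the lowest Syk (16.9 CPM).

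**Figure D5:**
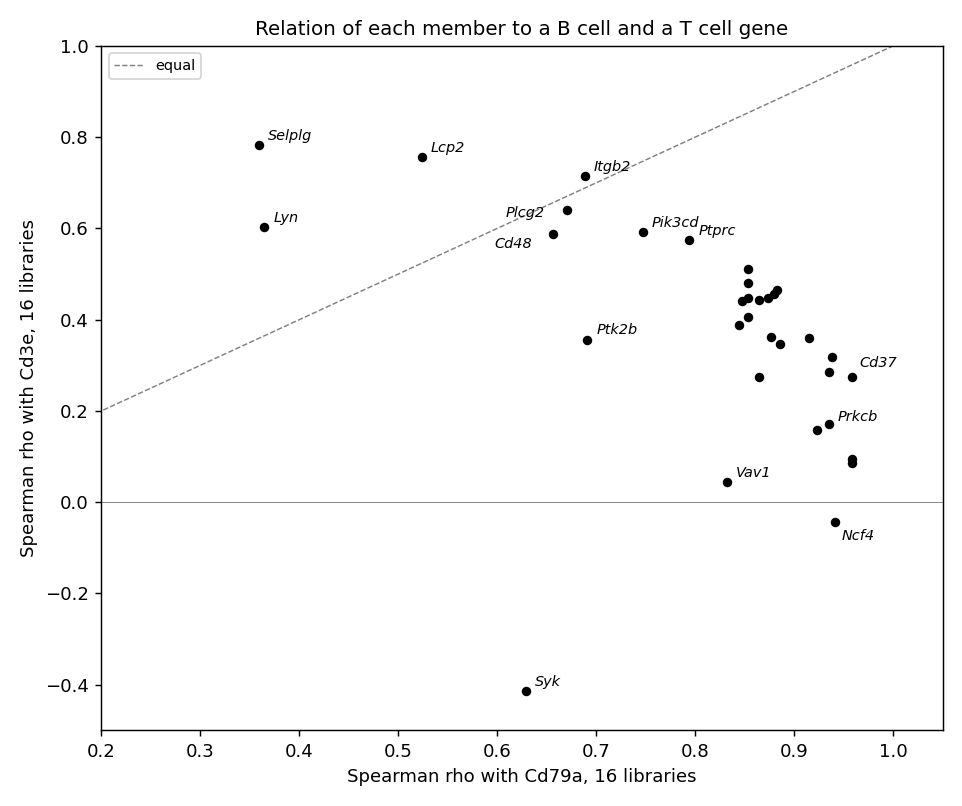
Each point is 1 of the 33 members, with its Spearman rho with Cd79a on the horizontal axis and with Cd3e on the vertical axis, over 16 libraries. The dashed line marks equal values: Selplg, Lcp2, Lyn and Itgb2 lie above it, the other 29 lie below it, and Syk is the lowest at -0.41.

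With log2 Cd79a CPM added to the fit as a covariate, the genotype difference of the members shrinks and keeps its sign. All 33 remained lower in Slfn3KO mice, with a median log2 fold change of -0.46 in place of -1.26. In edgeR's test 16 members had an unadjusted p under 0.05, against 375 of 14822 genes (2.53%), and the test called 0 genes (0%) while 796 had an unadjusted p under 0.05. With the replicate number fitted as a block, 7 members were at that level in place of 16, against 2.13% of all genes. This covariate was not fitted with DESeq2. Rhoh had the largest value, -0.75 (standard error 0.21, adjusted p = 0.811 by the quasi-likelihood test of edgeR, Benjamini-Hochberg adjusted), then Dock2 with -0.65 and Cd53 with -0.58. Ptprc had -0.47. The smallest were Vav1 with -0.03, Plcg2 with -0.09 and Ptk2b with -0.14. By role, all 6 actin and integrin genes were at an unadjusted p under 0.05 and 0 of the 9 signalling genes were. Of the 6, just 1 stayed at that level with the block and 1 without WT 3 and 4. The median was -0.31 without WT 3 and 4 of both labelled sexes, with 31 lower and 7 at an unadjusted p under 0.05, against 3.48% of all genes. Without female WT 1 the number was 9 (1.31% of all genes), and without male Slfn3KO 3 it was 10 (1.54%). The covariate is itself measured in these libraries, so the fit describes them and tests no cause.

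Markers of the cell types that mucosa can hold were measured beside the members. All 10 B cell markers were lower in Slfn3KO mice, with 10 at an unadjusted p under 0.05 in edgeR's test (7.10% of all genes), a median log2 fold change of -2.98, and 0.08 without WT 3 and 4 of both labelled sexes. That last value lies between opposite signs: with those libraries left out, all 10 were higher in labelled male Slfn3KO mice (median 3.61) and all 10 lower in labelled females (median -1.46), with 0 at an unadjusted p under 0.05 in each. The interaction was then negative for all 10, with a median of -5.12 and 7 at an unadjusted p under 0.05 in edgeR's test (12.5% of all genes). Their summed level was 35.4, 13.04, 61.5 and 15.9 CPM in female Slfn3KO 1 to 4 and 4.98, 10.2, 96.9 and 146 CPM in male Slfn3KO 1 to 4. It was 24.2, 144, 483 and 633 CPM in female WT 1 to 4 and 9.95, 8.07, 980.5 and 203 CPM in male WT 1 to 4. Cd79b had the highest median CPM of the 10, and Cr2, a marker of mature and follicular B cells, was at 0 in some library, with the others above 0 in all. Cr2 and Fcer2a had log2 fold changes of -3.15 and -3.08. The summed level is lowest in male Slfn3KO 1 and highest in male WT 3, the same ends as the members' sum. Their part in the result was not tested.

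All 10 T cell markers were lower too, with 4 at an unadjusted p under 0.05 (7.10% of all genes) and a median of -0.55, or -0.38 and 0 genes without WT 3 and 4 of both labelled sexes. Their sum ran from 51.8 CPM (male Slfn3KO 1) to 228 CPM (female WT 1), Cd8a had the highest median CPM, and none was at 0. Cd2, which mouse B cells also carry, had -2.06 and Cd4 -0.78. Of the 10 macrophage and dendritic cell markers 9 were lower, 2 of them at an unadjusted p under 0.05, with a median of -0.19 (0.17, with 0 at that level, without WT 3 and 4) and a sum from 56.4 CPM (male Slfn3KO 1) to 305 CPM (male WT 3). Lyz2, the most abundant of them by CPM, had -1.12, Mrc1 -0.49 and Fcgr1 0.08. Plasma cell markers went the other way in part, with 2 lower and 3 higher, a median of 0.43 and 0 at an unadjusted p under 0.05. When WT 3 and 4 were left out all 5 were higher, with a median of 0.94 and 1 at that level (2.70% of all genes). Igha, with the highest CPM of the list, had 0.54, Jchain 0.49, Mzb1 -1.05 and Derl3 -0.12. The plasma cell sum ran from 363 CPM (male Slfn3KO 1) to 4166 CPM (male Slfn3KO 3).

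Mast cell markers were higher in Slfn3KO mice, all 4 of those tested, with 3 at an unadjusted p under 0.05 (4.84% of all genes were higher at that level) and a median of 1.28. When WT 3 and 4 were left out Fcer1a passed the filter as well (1.96), and the median of the 5 was 0.91, with 2 at that level (2.70% of all genes). The mucosal proteases Mcpt1 and Mcpt2 had 1.37 and 1.34. The summed level of the 5 mast cell genes averaged 40.1 CPM (standard deviation 11.9) over the 8 Slfn3KO mice and 21.1 CPM (standard deviation 7.03) over the 8 WT mice, Kit had the highest median CPM, and Cpa3 and Fcer1a were at 0 in some library. Neutrophil genes are near 0: of 5, only Csf3r passed the filter (-0.16), the other 4 were at 0 in some library, and the sum reached at most 2.35 CPM. Epithelial markers, with Fabp2 the highest by CPM, had 9 of 10 lower, a median of -0.19 and 0 at an unadjusted p under 0.05. Without WT 3 and 4 the median was also -0.19, with 8 lower and 2 higher and 1 lower at that level (3.10% of all genes). Fabp2 had -0.63 over all 16 mice and -1.23 without WT 3 and 4. Krt20 had -0.41 and Lgals4 0.12 over all 16. The epithelial sum of 25348 to 54074 CPM shows the labelled mucosa in every library.

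Of 5 endothelial markers 3 were lower and 2 higher, with a median of -0.02 (0.61 without WT 3 and 4), a sum from 4.77 CPM (female WT 1) to 34.9 CPM (male WT 3) and Pecam1 the highest by CPM. Pecam1, which leukocytes also carry, had -0.83, Tie1 -0.07, Emcn 0.66 and Kdr 0.56. Among 6 fibroblast and smooth muscle genes 1 was lower (Pdgfra, -0.19) and 5 higher, with a median of 0.47 (1.23 without WT 3 and 4), and Col1a1 and Col3a1 at 0.66 and 0.57. Their sum ran from 8.54 CPM (female WT 1) to 90.4 CPM (female Slfn3KO 2), with Col3a1 the highest by CPM. All 4 red cell genes were lower, with a median of -0.94 (-0.59 without WT 3 and 4), Alas2 at -1.21 and Hbb-bt at -1.10. The red cell sum ran from 2.87 CPM (male WT 4) to 48.2 CPM (male WT 3), led by Hbb-bs. In these 3 lists 0 genes had an unadjusted p under 0.05 in edgeR's test over all 16 mice, and none was at 0 in a library. Without WT 3 and 4, all 6 fibroblast and smooth muscle genes were higher, 1 of them at that level (2.70% of all genes). For every marker list named here, its part in the result was not tested.

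Other genes of the same pathways were measured as well. Of 29 further leukocyte adhesion and migration genes, 26 were lower in Slfn3KO mice and 3 higher, 16 of them lower at an unadjusted p under 0.05 in edgeR's test (7.10% of all genes), with a median of -1.04. The largest were Cxcl13 (-3.16), the chemokine that draws B cells into follicles, and its receptor Cxcr5 (-3.15). At the other end were Ccl21a (0.96), a lymphatic chemokine, and the hyaluronan receptor Cd44 (0.21). Without WT 3 and 4 of both labelled sexes the median was 0.02, with 14 lower and 15 higher and 0 at an unadjusted p under 0.05. Their summed level ran from 600.5 CPM (male Slfn3KO 1) to 1336 CPM (male WT 3), and Gnai2 had the highest median CPM. Of 37 further blood cell signalling genes 36 were tested (Arhgap30 did not pass the filter), 34 were lower and 2 higher, 22 lower at an unadjusted p under 0.05 (7.10% of all genes), with a median of -0.79. The exchange factors Rasgrp3 and Rasgrp2 had -2.26 and -2.001, while Pik3r5, a PI3 kinase subunit, had 0.05. That median was -0.12 without WT 3 and 4, with 1 lower at an unadjusted p under 0.05 (3.10% of all genes) and 1 higher (2.70%). Against Cd79a the median rho was 0.876 for the adhesion and migration genes and 0.688 for the signalling genes, with 28 of 29 and 35 of 36 positive.

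Counts of the members are well above the limits of counting, with the smallest at 28 and the largest at 7018 in a library, and all 33 passed the filter. No member exon overlaps another gene on the same strand. The share of 50-base stretches of a member's transcripts that also occur in other genes was 13.4% for Lyn (shared with Gm11787), 3.34% for Lcp1 and 3.14% for Was, and at most 1.27% for the others. How reads from such stretches were counted was not tested.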

How the data were processed

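The authors' deposited counts table was used as given: 46078 genes by 16 libraries, of which 45143 genes were matched to a symbol. Its header names featureCounts (version 1.4.6 in the submitters' notes, with DESeq2 1.22.2), whereas the study's methods name HTSeq. Members, roles, relatives and marker lists were chosen with earlier results of these data known. Fits used edgeR 4.0.16 (TMM, quasi-likelihood F test, filter by group) and DESeq2 1.42.0 in R 4.3.3, and relations used Python 3.11.15, numpy 2.4.6, pandas 2.3.3, scipy 1.17.1 and matplotlib 3.10.9. Log2 CPM has a prior count of 2. Lengths are the table's exon lengths. In the smaller comparisons the named members are the 3 largest, the 3 smallest and Ptprc. Pairing by replicate number, which the labels do not state, was checked by correlation of residuals (males 0.229, 0.317, 0.518 and 0.138). Alternatives were RLE factors, a replicate block, other filters, no sex covariate, DESeq2, leaving out each library, and leaving out WT 3 and 4. Those without the 3 highest Cd79a libraries, within each labelled sex and with group means removed were added after the data were seen.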

Additional observations from a re-analysis of the deposited data

Results flagged for a closer look

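A gene was noted where 1 library of a group of 4 stood far from the other 3. This was found in 5 of 132 groups of members, and chance notes about 1 in 20 groups. Of these 5, 4 are in 1 library, female Slfn3KO 3.

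Cd37 in female Slfn3KO 3 was at 3.97 log2 CPM (15.5 CPM), with the other 3 between 5.32 and 6.18 CPM.

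Ptpn6 in female Slfn3KO 3 was at 5.23 log2 CPM (37.3 CPM), with the others between 27.1 and 27.8 CPM.

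Rac2 in female Slfn3KO 3 was at 4.84 log2 CPM (28.5 CPM), with the others between 17.3 and 18.7 CPM.

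Coro1a in female Slfn3KO 3 was at 5.40 log2 CPM (42.2 CPM), with the others between 24.6 and 25.4 CPM.

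Lcp2 in female WT 2 was at 2.34 log2 CPM (4.99 CPM), with the others between 11.3 and 13.3 CPM.

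The cause was not tested.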

How the results depend on the processing

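Slfn3KO against WT, all 16 mice: edgeR called 0 genes, with 984 at an unadjusted p under 0.05 and 1.5-fold, and DESeq2 called 54. Without WT 3 and 4 of both labelled sexes, 0 members had an unadjusted p under 0.05 and their median log2 fold change was -0.15. Syk (0.055), Inpp5d (0.017), Vav1 (0.19) and Tgfb1 (0.044) were then higher in Slfn3KO mice. With Cd79a as a covariate 16 members had an unadjusted p under 0.05 (2.53% of all genes). With the replicate block 33 were lower, 27 at an unadjusted p under 0.05 (6.21% of all genes), median -1.01.

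Labelled male: edgeR called 0 genes, with 272 at an unadjusted p under 0.05 and 1.5-fold, and DESeq2 called 14, with 5 members lower at an unadjusted p under 0.05 (2.89% of all genes). The replicate block gave 4 members at that level (3.24% of all genes), 32 lower, median -0.78, and Ptk2b at 0.034. Without WT 3 and 4, 5 members were lower and the median was 0.27, with Cd37 1.16, Cd53 0.33, Ncf4 0.36, Ptk2b 0.41, Plcg2 0.049 and Ptprc 0.18. Leaving out 1 library gave 0 to 8 members lower at an unadjusted p under 0.05 (3.57% of all genes for the 8) and medians of -1.44 to -0.092. Ptk2b then ran from -0.16 to 0.24, Lyn from -0.31 to 0.0080 and Plcg2 from -0.41 to 0.027.

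Labelled female: edgeR called 0 genes, with 1366 at an unadjusted p under 0.05 and 1.5-fold, and DESeq2 called 506. Without WT 3 and 4, 12 members had an unadjusted p under 0.05 (11.8% of all genes). The replicate block gave 27 (4.67% of all genes), median -1.24. Residuals by replicate number correlated at -0.362, 0.143, -0.337 and -0.113.

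Interaction: edgeR called 0 genes, with 946 at an unadjusted p under 0.05 and 1.5-fold, and DESeq2 called 19. Without WT 3 and 4, 359 genes were called and 4 members were lower at an unadjusted p under 0.05 (12.5% of all genes). With 10 counts needed in every library 0 members did. Leaving out 1 library gave 14 to 33 members negative, 0 to 10 at an unadjusted p under 0.05 (4.97% of all genes for the 10) and medians of -1.22 to 0.057. Ncf1 ran from -1.11 to 0.32, Ncf4 from -1.42 to 0.36, Plcg2 from -0.35 to 0.057 and Ptprc from -1.04 to 0.21. Ncf1 was -0.20 with the replicate block (members' median -0.47) and -0.50 without WT 3 and 4.

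Cd79a as a covariate: the replicate block gave 7 members at an unadjusted p under 0.05 (2.13% of all genes, median -0.48), leaving out WT 3 and 4 gave 7 (3.48% of all genes), and leaving out 1 library gave 9 (1.31% of all genes, without female WT 1) to 22 (3.50%, without female WT 2). Vav1 ran from -0.11 to 0.067 and was 0.14 without WT 3 and 4.

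Relation to Cd79a: the members' median rho was 0.952 within WT, 0.685 without WT 3 and 4, 0.725 without the 3 highest libraries, 0.738 within labelled female, 0.406 with Cd3e and 0.385 with Csf1r. Members at an adjusted permutation p under 0.05 numbered 0 within Slfn3KO, 16 without the 2 farthest libraries (2.89% of all genes), 3 without WT 3 and 4 (0.762%), 9 without the 3 highest (1.34%), 7 within labelled male (0.742%), 0 within labelled female, 0 with Cd3e and 0 with Csf1r.

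Of the gene results 1222 were the same, 4 stronger and 49 reversed. A result counted as the same if its sign and its outcome at the threshold were kept, whatever its size. In edgeR's test no gene passed with all libraries kept, so shrinkage alone left a result the same. Over all mice the members' median went from -1.26 to -0.15 without the 4 WT libraries that go against their sex labels. The count of same results thus does not show that sizes were kept. Of the others 385 were the same, 57 moved and 4 reversed. The cause was not tested.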
